A study of Cricetulus griseus with 9 samples.

Results

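The 149 genes described here were each at least 1.5 times as high in every library of CHO-K1 cells given a miR-29 precursor as in any library of cells given an inhibitor of miR-29. They were chosen by that readout from a table of 15557 genes, of which 8617 had a mean of at least 5 FPKM over all 9 libraries. The unit, FPKM, divides fragments by the gene model's length in kilobases and by library size, so levels can be compared between genes. For each gene the lowest of the 6 pre-miR libraries was divided by the highest of the 3 anti-miR-29a libraries, and this separation ratio had to reach 1.5. ENSMUSG00000074676, whose separation ratio was 2.16, was left out by the rule. Since the pre-miR and anti-miR-29a values fixed the membership, the direction and size of that difference are given as a description with no test. The share of genes the rule took was 1.73%, and the same rule turned round, with the anti-miR-29a libraries on top, took 607 genes or 7.04%.

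CHO-K1 is an established epithelial-like line from Chinese hamster ovary, used widely to make recombinant proteins. All cells were kept in medium with charcoal-stripped serum, which holds little steroid hormone, and all were transfected for 48 h with a lipid reagent. Of the groups, 3 libraries came from cells given pre-miR-29b-1, 3 from cells given pre-miR-29a and 3 from cells given anti-miR-29a, which the submitters describe as blocking both microRNAs. Cells with no small RNA or with a control RNA were not analysed here, so a higher level with the pre-miRs cannot be told apart from a lower level with the inhibitor. The series text speaks of separate experiments without saying whether each held every molecule, and no label ties the replicates to cultures grown apart, so a p-value here reflects only how far libraries vary, which may be technical. The size of the steps between low values implied library totals of 15155000 to 20755000 reads. Any scaling between libraries would enter these totals.

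The miR-29 family consists of small RNAs that share a seed, the stretch that pairs with the 3′ untranslated region of a messenger RNA. Pairing lowers the stability or the translation of the target, and transcripts for extracellular matrix proteins are the family's best known targets. The genes carry mouse Ensembl identifiers, because the models are mouse proteins aligned to the hamster genome, and the files do not pair the identifiers with names. No member is therefore given a name or a function, except for 1 gene that a published list of cell cycle markers holds under its identifier.

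ENSMUSG00000027338 had the widest separation, with a ratio of 3.49. Its model is a single exon of 537 coding bases on scaffold JH000136:607256-607792 of CriGri_1.0, minus strand. It stood at 13.4, 13.2 and 14.8 FPKM with pre-miR-29b-1, at 13.3, 14.9 and 13.7 FPKM with pre-miR-29a and at 3.80, 3.00 and 3.49 FPKM with anti-miR-29a. The pre-miR groups overlapped, and their means were 4.03 and 4.07 times the anti-miR-29a mean. The lowest of its values rested on 24 implied reads, so the inhibitor level is known less well than the others.

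ENSMUSG00000030000, with 14 exons, came next. Its values were 42.9, 43.9 and 42.9 FPKM with pre-miR-29b-1, 38.9, 38.5 and 37.7 FPKM with pre-miR-29a and 14.7, 13.9 and 14.8 FPKM with anti-miR-29a. Here all pre-miR-29b-1 libraries lay above all pre-miR-29a libraries. ENSMUSG00000005413, a model of 4 exons and 849 coding bases, was the most abundant of the 30 members with the highest ratios. It stood at 719, 680.3 and 669 FPKM with pre-miR-29b-1, at 779, 768 and 839 FPKM with pre-miR-29a and at 269.8, 239.5 and 259.8 FPKM with anti-miR-29a. In this gene the order of the pre-miR groups was the opposite, with every pre-miR-29a library above every pre-miR-29b-1 library.

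For ENSMUSG00000022096, which has 18 exons, the values were 48.5, 44.4 and 43.6 FPKM with pre-miR-29b-1, 44.1, 39.8 and 38.8 FPKM with pre-miR-29a and 15.8, 13.5 and 12.9 FPKM with anti-miR-29a. The pre-miR groups overlapped, and replicate 1 was the highest library in all 3 groups. In ENSMUSG00000039633, with 11 exons, they were 40.7, 42.3 and 40.5 FPKM with pre-miR-29b-1, 45.4, 43.5 and 44.6 FPKM with pre-miR-29a and 16.3, 16.8 and 15.8 FPKM with anti-miR-29a. Pre-miR-29a was higher there without overlap. ENSMUSG00000048938, with 10 exons, was a low gene at 7.81, 9.23 and 8.87 FPKM with pre-miR-29b-1, 9.01, 9.97 and 8.79 FPKM with pre-miR-29a and 2.79, 3.12 and 3.25 FPKM with anti-miR-29a. Its pre-miR groups overlapped.

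The closest match between the pre-miRs among the leading members was ENSMUSG00000020388, with 6 exons. It measured 34.1, 31.9 and 33.5 FPKM with pre-miR-29b-1, 31.8, 33.8 and 33.6 FPKM with pre-miR-29a and 12.0, 13.3 and 12.8 FPKM with anti-miR-29a. ENSMUSG00000034714, with 13 exons, measured 15.7, 13.1 and 13.4 FPKM with pre-miR-29b-1, 13.9, 12.1 and 14.5 FPKM with pre-miR-29a and 5.14, 5.09 and 4.73 FPKM with anti-miR-29a. In both genes the pre-miR groups overlapped, and the inhibitor libraries lay well below them. ENSMUSG00000061082, another single exon of 519 coding bases, was at 28.7, 28.3 and 27.1 FPKM with pre-miR-29b-1, at 29.5, 34.4 and 34.2 FPKM with pre-miR-29a and at 10.3, 9.72 and 11.6 FPKM with anti-miR-29a. It was higher with pre-miR-29a in every library.

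ENSMUSG00000075520, with 6 exons, had the lowest inhibitor value of the leading 15 members. It stood at 7.23, 8.68 and 6.81 FPKM with pre-miR-29b-1, at 7.21, 9.31 and 9.90 FPKM with pre-miR-29a and at 2.92, 1.82 and 2.45 FPKM with anti-miR-29a. Its libraries were spread widely within each group. ENSMUSG00000044017, whose 26 exons are the most among the leading 30, had 64.5, 72.8 and 69.9 FPKM with pre-miR-29b-1, 73.7, 58.3 and 66.6 FPKM with pre-miR-29a and 24.5, 24.7 and 25.4 FPKM with anti-miR-29a. There the inhibitor libraries were close together and the pre-miR groups overlapped.

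ENSMUSG00000002227, with 19 exons, was at 110.5, 112 and 111 FPKM with pre-miR-29b-1, at 116, 109.8 and 111 FPKM with pre-miR-29a and at 48.0, 44.7 and 48.5 FPKM with anti-miR-29a. ENSMUSG00000032172, with 5 exons, was at 7.58, 6.38 and 6.50 FPKM with pre-miR-29b-1, at 7.04, 7.26 and 6.55 FPKM with pre-miR-29a and at 2.36, 2.05 and 2.89 FPKM with anti-miR-29a. These genes differ widely in level, and in both the pre-miR groups overlapped. ENSMUSG00000022707, with 15 exons, had 42.0, 40.4 and 40.9 FPKM with pre-miR-29b-1, 41.4, 42.3 and 44.7 FPKM with pre-miR-29a and 17.7, 19.0 and 18.7 FPKM with anti-miR-29a. ENSMUSG00000068742, with 11 exons, had 31.6, 34.3 and 29.4 FPKM with pre-miR-29b-1, 34.5, 28.9 and 28.8 FPKM with pre-miR-29a and 12.2, 12.7 and 13.6 FPKM with anti-miR-29a. Again the pre-miR groups overlapped in both.

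**Figure D1:**
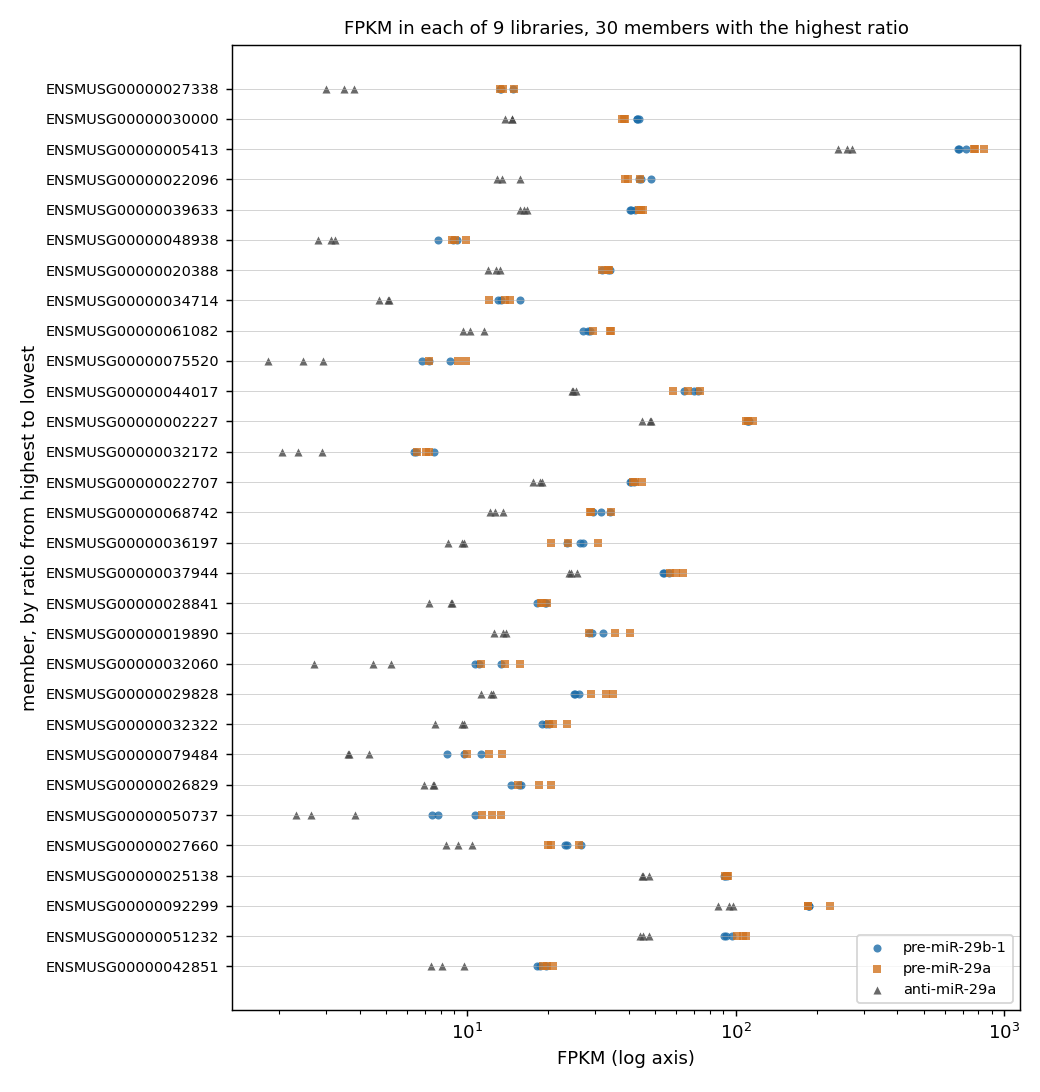
FPKM on a log axis in each of the 9 libraries for the 30 members with the highest separation ratio, 1 row per gene, with circles for pre-miR-29b-1, squares for pre-miR-29a and triangles for anti-miR-29a. In each row the triangles lie to the left of all other points, as the rule requires, while circles and squares mostly overlap.

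The next 15 members by ratio were ENSMUSG00000036197, ENSMUSG00000037944, ENSMUSG00000028841, ENSMUSG00000019890, ENSMUSG00000032060, ENSMUSG00000029828, ENSMUSG00000032322, ENSMUSG00000079484, ENSMUSG00000026829, ENSMUSG00000050737, ENSMUSG00000027660, ENSMUSG00000025138, ENSMUSG00000092299, ENSMUSG00000051232 and ENSMUSG00000042851. Their ratios ran from 1.87 to 2.09 and their exon counts from 2 to 21. Their mean levels over the 9 libraries ran from 8.01 to 159.6 FPKM. ENSMUSG00000050737 showed the largest fold of the set for pre-miR-29a, at 4.23 times the inhibitor mean, against 2.96 times for pre-miR-29b-1. It is a low gene, with 8.67 ± 1.83 FPKM for pre-miR-29b-1, 12.4 ± 1.04 FPKM for pre-miR-29a and 2.93 ± 0.80 FPKM for anti-miR-29a (SD, n = 3 each). Its lowest value rested on 18.5 implied reads, the fewest of any member. ENSMUSG00000025138, by contrast, was tight in all groups, at 91.4 ± 1.15, 92.6 ± 1.49 and 45.9 ± 1.54 FPKM in the same order.

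The set as a whole was raised moderately. The separation ratio had a median of 1.67 and exceeded or met 2 in 21 members, while 53 members lay under 1.6. The group mean with pre-miR-29b-1 was 1.58 to 4.03 times the inhibitor mean, with a median of 1.91. With pre-miR-29a it was 1.61 to 4.23 times, with a median of 1.99. Both folds reached 2 in 47 members, pre-miR-29a alone reached it in 25, pre-miR-29b-1 alone in 9 and neither in 68. Both folds divide by the same 3 anti-miR-29a libraries, so their likeness across genes is no separate evidence.

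**Figure D2:**
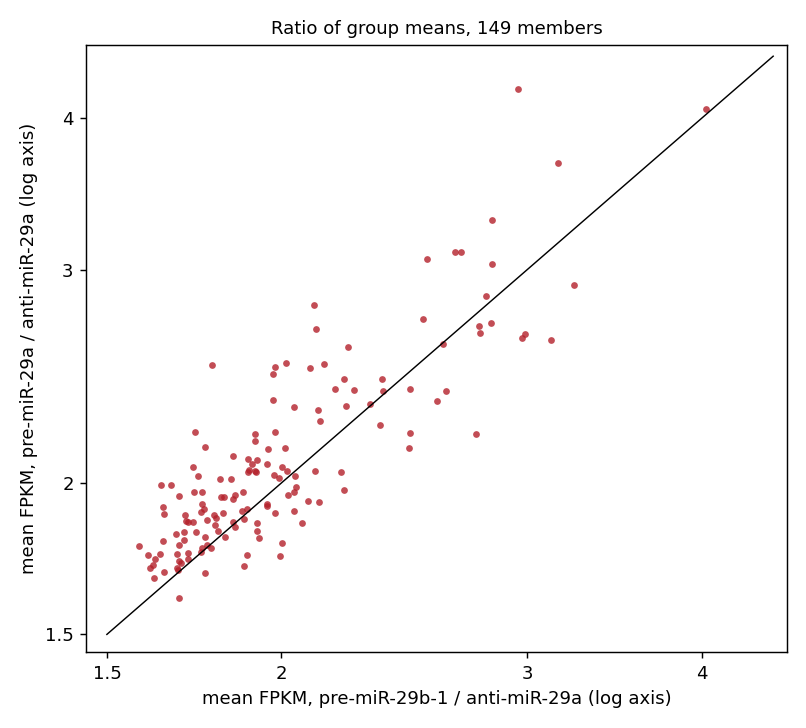
Mean FPKM with pre-miR-29a over the anti-miR-29a mean (vertical, log axis) against the same ratio for pre-miR-29b-1 (horizontal, log axis), 1 point per member, with the line of equality. Both ratios share their denominator, and more points lie above the line than below it.

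The rule's limit fell in a dense range of genes. Just inside it were ENSMUSG00000025019, ENSMUSG00000032254 and ENSMUSG00000034460, with ratios of 1.502, 1.502 and 1.504. Just outside were ENSMUSG00000037552 at 1.497, ENSMUSG00000036120 at 1.495 and ENSMUSG00000039741 at 1.489. ENSMUSG00000025019 was also the least even member with pre-miR-29a, at 18.3, 9.14 and 11.04 FPKM, against 15.3, 13.7 and 11.6 FPKM with pre-miR-29b-1 and 6.08, 5.77 and 5.36 FPKM with anti-miR-29a. Its replicate 1 stood far above the other pre-miR-29a libraries.

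**Figure D3:**
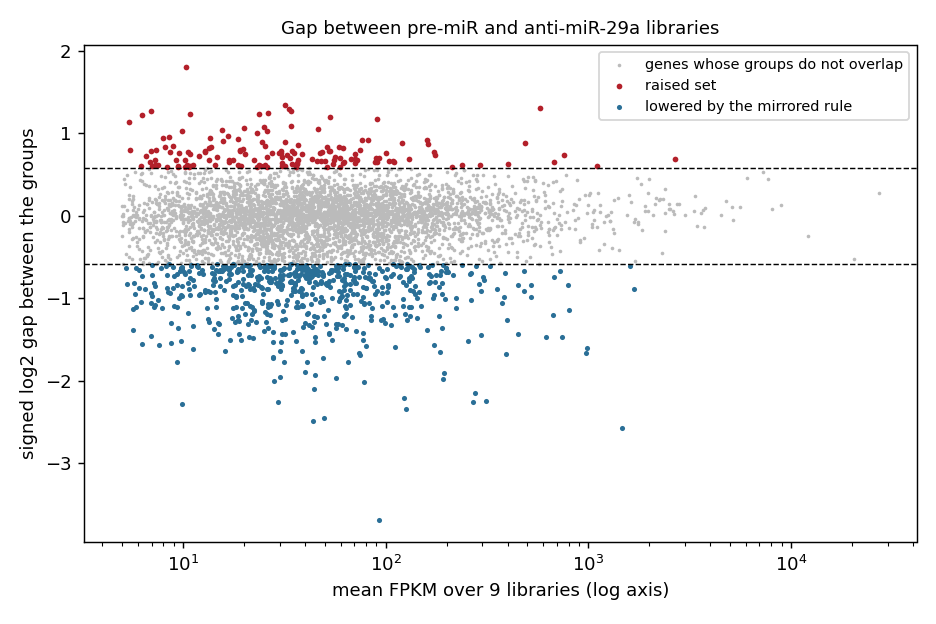
Signed log2 gap between the pre-miR and the anti-miR-29a libraries (vertical) against mean FPKM over 9 libraries (log axis), for genes of at least 5 FPKM whose groups do not overlap. Dashed lines mark a separation of 1.5-fold, the 149 raised genes are red, and the 607 genes of the mirrored rule are blue and reach farther from 0.

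A few abundant transcripts held much of the set's signal. Of all FPKM in a library the members made up 1.22 ± 0.028% in the pre-miR-29b-1 group, 1.28 ± 0.059% in the pre-miR-29a group and 0.645 ± 0.018% in the inhibitor group (SD, n = 3 each). The 5 members with a mean of at least 500 FPKM, picked out after their values were seen, held 45.5% of the members' FPKM. They were ENSMUSG00000069106, ENSMUSG00000070319, ENSMUSG00000023048, ENSMUSG00000021270 and ENSMUSG00000005413. ENSMUSG00000069106 alone, a model of 3 exons and 627 coding bases, held 21.02%.

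It stood at 3129, 3020.5 and 2935 FPKM with pre-miR-29b-1, at 3151, 3157 and 3451 FPKM with pre-miR-29a and at 1822, 1786 and 1644 FPKM with anti-miR-29a (ENSMUSG00000069106). Its exon bases overlap those of ENSMUSG00000011752, for which the table gives no values. The overlap was found by position, without regard to strand, so whether reads of the pair can be told apart is not known. ENSMUSG00000070319, with 11 exons, stood at 1228, 1204 and 1218 FPKM, at 1195, 1405 and 1363 FPKM and at 783, 736 and 755 FPKM in the same order of groups. Both of these abundant members had folds below the medians of the set, at 1.73 and 1.86 times the inhibitor mean for ENSMUSG00000069106 and 1.61 and 1.74 times for ENSMUSG00000070319. Of the 5, only ENSMUSG00000005413, described above, was also among the 30 members with the highest ratios.

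Most members were expressed at a modest level. The median of the mean level was 30.6 FPKM, against 44.5 FPKM over all genes of at least 5 FPKM and 39.0 FPKM over the genes of the mirrored rule. Of 757 genes between 5 and 10 FPKM, 24 or 3.17% were members. The share was 2.32% between 10 and 20 FPKM, 1.80% between 20 and 50 FPKM, 1.61% between 50 and 100 FPKM and 0.807% between 100 and 500 FPKM. Above that it was 1.34%, from 5 of 373 genes. Under the mirrored rule the shares from the lowest to the highest level were 7.4, 7.12, 8.55, 6.71, 5.76 and 3.75%. The mean level is taken over the same 9 libraries that chose the genes, 6 of them with a pre-miR. A raised gene can thus reach 5 FPKM through its pre-miR values. ENSMUSG00000032172 did so, with a mean of 5.40 FPKM but an anti-miR-29a mean of 2.43 FPKM. The medians and shares by level, and their contrast with the mirrored rule, are therefore partly set by the rules and were not tested. In 10 members the lowest value rested on under 50 implied reads, and the median over members was 355 reads.

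The gene models of the members had a median of 7 exons, with quartiles of 5 and 12 and a range of 1 to 42. All genes of at least 5 FPKM had a median of 9 with quartiles of 5 and 14, and the lowered genes of the mirrored rule had a median of 9. Coding length hardly differed, with medians of 1305 bases for the members, 1302 bases for all genes and 1245 bases for the lowered genes. Coding bases per exon accordingly had a median of 161 in the members, 138 in all genes and 134.5 in the lowered genes. Exon counts come from aligned mouse proteins, so exons made only of untranslated sequence are not in them.

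Models of 2 or 3 exons were members most often, at 24 of 972 or 2.47%, and models of at least 21 exons least often, at 14 of 1046 or 1.34%. Between these the shares were 1.87% for 4 to 6 exons, 1.71% for 7 to 10 and 1.54% for 11 to 20. Under the mirrored rule the share ran from 4.31% for single-exon models to 8.86% for 7 to 10 exons. It was 7.51% for 2 or 3 exons and 5.26% for at least 21. Single-exon models were members in 6 of 394 cases or 1.52%. Those 6 were ENSMUSG00000027338, ENSMUSG00000061082, ENSMUSG00000046798, ENSMUSG00000079580, ENSMUSG00000048546 and ENSMUSG00000033460. Their share of the set, 4.03%, was near the 4.57% of all genes. The longest chains of exons belonged to ENSMUSG00000037426 with 42, ENSMUSG00000005045 with 39 and ENSMUSG00000039765 with 37.

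**Figure D4:**
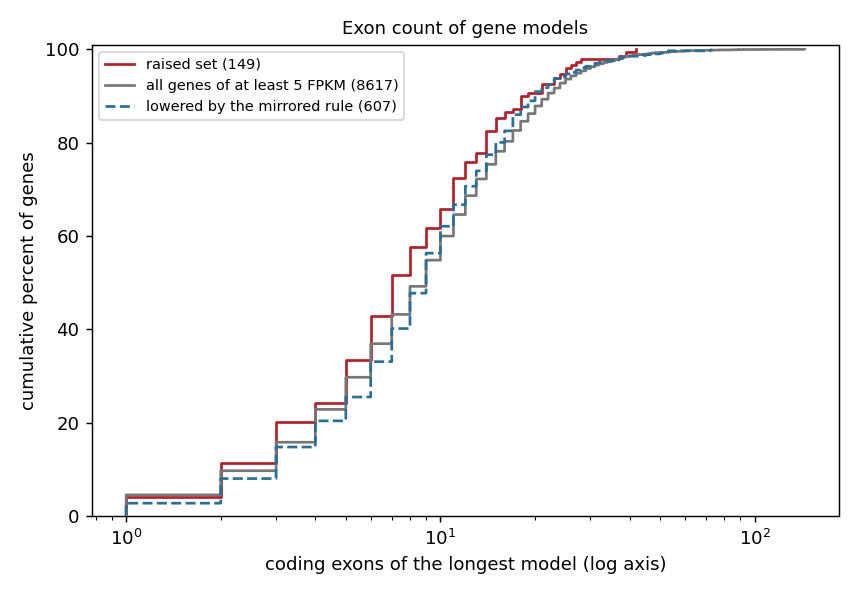
Cumulative percent of genes by the number of coding exons in the longest model (log axis), for the 149 raised genes, all 8617 genes of at least 5 FPKM and the 607 lowered genes. The raised set's curve lies to the left of the others from about 5 to 15 exons, with a median of 7 against 9.

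Alignment of mouse proteins can place a gene more than once or over another gene. Several models were given for 28 members or 18.8%, against 23.0% of all genes. Exon bases shared with another gene, on either strand, were found for 7 members or 4.70%, against 5.80% of all genes. The remaining 115 members, with 1 model and no shared bases, also had a median of 7 exons. ENSMUSG00000032060 shares bases with ENSMUSG00000038086, whose level was uneven at 3.45 ± 3.81 FPKM with pre-miR-29b-1 and 11.4 ± 2.95 FPKM with pre-miR-29a (SD, n = 3 each). Reads of the pair may be mixed, so the values of ENSMUSG00000032060 may be uncertain.

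The pre-miRs were also compared with each other. The rule used these same libraries, through the lowest of the 6 values, so the members' counts, intervals and p-values in this comparison describe the set and are no independent test of it. No member (0 of 149) passed between them in limma's test on log2(FPKM + 1), with Benjamini-Hochberg adjustment over 9504 genes and a threshold of 0.05. The lowest adjusted p of a member in limma was 0.220. Over all tested genes 1, or 0.0105%, passed, ENSMUSG00000031167, which is no member. At an unadjusted p under 0.05 there were 35 members, 29 of them higher with pre-miR-29a and 6 higher with pre-miR-29b-1, beside 16.5% of all tested genes. For the size of the difference, a 95% interval that stayed inside 1.5-fold either way was found for 143 of the 149 members, and for 92.7% of tested genes.

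The largest differences were small in FPKM. For ENSMUSG00000050737 the log2 difference, pre-miR-29b-1 minus pre-miR-29a, was -0.49, with a 95% interval of -0.85 to -0.13. At the other end stood ENSMUSG00000038390, with 2 exons, at 0.30 and an interval of 0.04 to 0.56. It measured 9.04, 10.7 and 9.35 FPKM with pre-miR-29b-1, 8.97, 7.67 and 6.51 FPKM with pre-miR-29a and 3.76, 3.68 and 3.11 FPKM with anti-miR-29a. The pre-miR groups did not overlap in this gene, and its limma adjusted p was 0.264.

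Small differences mostly ran towards pre-miR-29a. In 107 members or 71.8% the mean log2 level was higher with pre-miR-29a, against 52.1% of all genes of at least 5 FPKM. The median log2 difference was -0.07 over the members and -0.01 over all genes. All pre-miR-29a libraries lay above all pre-miR-29b-1 libraries in 38 members or 25.5%, where 9.24% of all genes did so. The reverse held for 8 members or 5.37%, against 9.89% of all genes. In the genes of the mirrored rule 30.1% had the higher mean with pre-miR-29a.

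The lean has the same limit. The rule asks each of the 6 pre-miR libraries to pass the limit, so the spread within a group enters the choice of members. Over all genes the median SD of log2 levels was 0.105 with pre-miR-29a and 0.061 with pre-miR-29b-1. Over the members it was 0.086 and 0.065 in the same order. The part of this spread in the lean was not tested. When the rule was instead put on group means, 353 genes qualified, all 149 members among them, and 222 or 62.9% were higher with pre-miR-29a, with a median log2 difference of -0.03. That alternative was chosen after the data were seen.

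The count between the pre-miRs changed with the libraries and their weights. Estimated library weights were lowest for replicate 1 of pre-miR-29a, at 0.213, with 0.429 for replicate 2 and 3.54 for replicate 3 of that group. Replicate 1 was the highest or lowest library of that group in 78.5% of members and in 80.4% of all genes of at least 5 FPKM. In a group of 3, any library is highest or lowest in many genes. Among the members, replicate 1 was highest in 62 and lowest in 55. The counts were 45 and 53 for replicate 2, and 42 and 41 for replicate 3. Without replicate 1 of pre-miR-29a, limma called 24 of 149 members, 4 higher with pre-miR-29b-1 and 20 higher with pre-miR-29a. Of all tested genes it then called 14.5%. With all 9 libraries kept and weighted, it called 55 of 149 members, 12 and 43 in that order, beside 38.2% of all tested genes. In each of these settings the share of members called was near that of all tested genes. The number of calls is therefore not particular to the set. All 24 were among the 55. Both settings give replicate 1 of pre-miR-29a little or no say, so this overlap is no separate evidence. The weighted calls also rest largely on replicate 3 of pre-miR-29a and on replicate 2 of pre-miR-29b-1, whose weight was 2.95.

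The strongest of the 24, named after its value was seen, was ENSMUSG00000018774, with 6 exons. It measured 12.7, 13.8 and 14.1 FPKM with pre-miR-29b-1, 14.3, 20.4 and 22.3 FPKM with pre-miR-29a and 7.37, 7.44 and 7.94 FPKM with anti-miR-29a. Replicate 1 of pre-miR-29a lay close to the pre-miR-29b-1 libraries, and the other two lay well above. Without that replicate the log2 difference was -0.62 with a limma adjusted p of 0.0194. With it the log2 difference was -0.44, with an interval of -0.74 to -0.14 and a limma adjusted p of 0.225. The sizes over the 24 members ran from 0.18 to 0.62 on the log2 scale, with a median of 0.29.

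Cell cycle markers were read in the comparison that chose the set. Both pre-miRs against anti-miR-29a gave 2783 higher genes or 29.3% and 3074 lower genes or 32.3% in limma at the same threshold. Of 78 phase markers, taken by mouse Ensembl identifier from pairs distributed with the scran package and chosen after earlier results were known, those that passed the filter on low values were read. Of the G1 markers 3 of 11 were higher and 6 lower, with a median log2 difference of -0.33. Of the S markers 7 of 29 were higher and 12 lower, with a median of -0.10. Of the G2M markers 10 of 23 were higher and 8 lower, with a median of 0.18, beside -0.01 over all tested genes. The part of a shift in cell cycle phase in the set was not tested.

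Among markers of at least 5 FPKM, members numbered 1 of 22 for G2M, 0 of 11 for G1 and 0 of 29 for S. Over all genes of at least 5 FPKM the share of members was 1.73%. The mirrored rule took 2 G2M, 1 G1 and 1 S marker, beside 7.04% of all genes. The 1 member, ENSMUSG00000032254 of the G2M list, is a model of 21 exons and 2838 coding bases. It stood at 70.7, 62.8 and 61.0 FPKM with pre-miR-29b-1, at 73.1, 76.4 and 76.6 FPKM with pre-miR-29a and at 38.7, 39.0 and 40.6 FPKM with anti-miR-29a. It was just inside the rule's limit and was higher with pre-miR-29a in every library, with a log2 difference of -0.22 and a limma adjusted p of 0.220.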

How the data were processed

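RNA levels were measured in 9 CHO-K1 libraries, 3 per group, by stranded mRNA sequencing with single reads. The authors deposited 1 table of FPKM for 15557 genes. The submitters' processing notes name FastQC, TopHat2 2.0.13 and Cuffnorm as the tools behind it. Library scaling, strand setting and filters were not given in the sources used here. Per the file headers, the deposited annotation places the mouse protein set of Ensembl release 66 on the hamster assembly CriGri_1.0, and exon counts and coding lengths were computed from it, using the longest model of a gene. Of the model lengths 99.87% were multiples of 3, so untranslated regions are outside them. Depth was read from FPKM steps in models of at least 3000 coding bases, where 99.1% to 100% of values at or below 5 reads were whole to a tolerance of 0.2 reads. The RefSeq gene table for CriGri-PICRH-1.0, with 32251 genes, held 0 of the identifiers, so gene lists and cell markers kept by symbol could not be used.

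Differences were tested on log2(FPKM + 1) with limma 3.58.1 (R 4.3.3), a scale that understates the change of low genes. A single fit over all 9 libraries had a term per group and moderated variances that follow mean level, for the 9504 genes that averaged 1 FPKM or more. Two-sided p-values were adjusted by the Benjamini-Hochberg method over all genes tested. The procedure was checked on simulated data, where the share of false calls was somewhat above the threshold. The simulated libraries were independent and equally variable, so the check does not cover the unequal weights and the correlations between libraries found here. Members and lists were chosen with earlier results of these data known. The 30 members with the highest ratio were named, 15 of them with all their values, plus genes said to be named after their values were seen. ENSMUSG00000031167, ENSMUSG00000038390, ENSMUSG00000032060 as an example of shared bases, and the single-exon and longest models were also named after their values were seen. Alternatives changed the pseudocount, filter, scaling, variance model, library weights, rule limits and libraries.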

Additional observations from a re-analysis of the deposited data

How the results depend on the processing

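The count of members differing between the pre-miRs was 0 in 17 of 19 settings. Leaving out 1 library at a time gave 0 to 24 members, with 24 without pre-miR-29a replicate 1, and array weights gave 55. Over all tested genes the count was 1, against 0 with unmoderated variances, 0 with only the 6 pre-miR libraries, 3627 with array weights, and 1 to 1378 when 1 library was left out. With the replicate number as a block it was 184, and 0 members passed. Same-numbered libraries correlated at -0.018 to 0.295 in their deviations from group means, over 0.1 in 6 of 9 pairs. Since not every pair passed that limit and the labels tie the numbers to nothing, the numbers were not taken to pair samples, although 13 of 18 best matches carried the same number, a hint of pairing from the data. The cause of these changes was not tested. The median log2 difference over the members lay between -0.0728 and -0.0543 in the 19 settings, of which those that change only the filter, the variance, the block or the anti-miR-29a libraries cannot move it.

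The size of the set depends on its limits by construction. A lower limit on the ratio gave 512 genes, a limit of 2 gave 21, and group means in place of single libraries gave 353. Leaving out 1 library gave 150 to 189 genes, with all 149 members among them each time. Dropping a library can only ease the ratio limit, so apart from the limit on the mean the set could only grow. Quantile normalization gave 213 genes and moved the split of genes called for both pre-miRs against anti-miR-29a from 2783 higher and 3074 lower to 3532 higher and 2622 lower. Precision is limited in the 10 members with a value under 50 implied reads, where counting error is largest.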

Other observations

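The members were spread over the genome assembly. They lay on 133 scaffolds, 119 of which held a single member and 14 more than 1, with at most 3 on a scaffold. The closest pair was ENSMUSG00000028850 and ENSMUSG00000037553, 31177 bases apart, with 1 other gene of at least 5 FPKM between them. The scaffolds of this assembly are short, so distances between members on different scaffolds are unknown.

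Below the level limit of the rule, 74 of 886 genes with a mean of 1 to under 5 FPKM had the same separation ratio of at least 1.5, and 30 had it in the opposite direction. At or above 5 FPKM the order was the reverse, with 149 raised and 607 lowered genes. Genes above 0 numbered 11338 to 11400 in the anti-miR-29a libraries and 11794 to 12074 in the pre-miR libraries. Implied totals were 15155000 to 17965000 reads and 16600000 to 20755000 reads in the same order. The part of detection near 0 in these counts was not tested. The 74 low genes had a median of 11 exons, against 7 over all genes of that level, whereas the members had a median of 7, against 9 over all genes of at least 5 FPKM, a comparison not matched for level. These counts are descriptions of the libraries that chose the genes, and neither contrast was tested.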
